A study of Mus musculus with 5 samples.

Results

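The genes described here encode collagen chains and the proteins that modify, crosslink, fold and trim them. They were taken from a list of 37 gene symbols, 22 for collagen chains and 15 for enzymes and helpers, defined by name and not by a threshold on values. The list was made with earlier results of these data known. Of the 37, 35 had a value among the 14454 listed genes, 34 were above 0 in at least 1 line, and 29 passed the filter of a mean of at least 1 RPKM (read number relative to transcript length and library size) over the lines. Col15a1 and Pcolce2 were not analysed here. RNA came from 4 lines with an integrated human histone H2A carrying T120D, numbered 3, 6, 15 and 18, and from 1 line with wild-type H2A (wt). All 5 derive from NIH/3T3, immortalised fibroblasts of mouse embryos, and express their H2A fused to EGFP, and all were grown in DMEM with 10% fetal calf serum and 10 µg/ml gentamicin. T120D puts an aspartate where the C-terminal tail has a threonine, a change often used to imitate phosphorylation. The sources used here do not give the promoter of the transgene or say whether a numbered line was a clone, and the p-values measure the distance of the 1 wt line from the spread between T120D lines.

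Collagens are built from chains that wind into a triple helix, and fibroblasts are their main source in connective tissue. Fibrillar collagens form the load-bearing fibres, type IV collagen forms the sheet of basement membranes, and type VI collagen forms beaded filaments around cells. Before secretion, prolines and lysines of the chains are hydroxylated in the endoplasmic reticulum, where the chaperone HSP47 binds the folded helix. After secretion, proteinases remove the propeptides, and enzymes of the lysyl oxidase family start the crosslinks between molecules.

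Depth was low and even. The spacing of low values gave an estimated 2525000 to 2725000 reads per line, at which 47.3% to 48.9% of values under 20 reads lay within 0.05 of a whole read. At that depth, 1 RPKM of a transcript of 2000 bases stands for 5.05 to 5.45 reads. Fibroblast markers were expressed, with Vim at 801 to 848 RPKM in T120D lines and 701 in wt. Pdgfra (3.44-fold), Fn1 (2.70-fold) and Dcn (2.30-fold) were lower than wt and Thy1 (2.71 times wt) was higher, with limma adjusted p of 0.000444, 0.0003, 0.043 and 0.000911. S100a4, the most abundant, was at 927 to 1150 RPKM in T120D lines and 1363 in wt (limma adjusted p = 0.03). The Dcn and S100a4 calls ended without T120D line 3, 15 or 18. Lum, another of them, was at 0 to 0.362 RPKM in T120D lines and 3.89 in wt. Of the 10 tested fibroblast markers, 1 was higher and 5 were lower in T120D, against 7.65% and 5.45% of all tested genes. Dcn and S100a4 are among those 5. The sum over the 11 listed ranged over 2086 to 2380 RPKM in T120D lines and was 2705 in wt. The 18 measured markers of chondrocytes, osteoblasts, epithelium, endothelium, macrophages and skeletal muscle summed to 2.67 to 4.998 RPKM in T120D lines and 3.99 in wt, and Pecam1, Tek and Dmp1 were listed at 0 in every line. The part of these shifts in the collagen values was not tested.

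Of the tested genes, 8 of 16 collagen chains and 4 of 13 enzymes and helpers were called different between the T120D lines and the wt line, against 13.1% of all tested genes. The genes were chosen with earlier results of these data known, so these shares are a description and not a test. At a mean of at least 5 RPKM, 4 were called higher and 8 lower of 26 listed genes, and 1183 were called of all 6232 tested. The type VI chains Col6a1 and Col6a2 and the type III chain Col3a1 were 2.97-fold to 3.62-fold below wt, while Col4a1, Col8a1, Plod2 and Loxl4 were higher. Of the 29 tested genes, 4 were higher and 8 lower in T120D at an adjusted p under 0.05 (limma on log2(RPKM + 1), Benjamini-Hochberg over all 10052 tested genes). That is 13.8% and 27.6% of them, where 7.65% of all tested genes were called higher and 5.45% lower. The median log2 difference was -0.08 over the 29 genes and -0.02 over all tested genes. The wt line lay outside the range of the T120D lines for 22 of the 29 genes (75.9%), against 63.4% of all tested genes. All T120D lines were above wt for 8 of them (31.1% of all tested genes) and below it for 14 (32.3%). With 1 line against 4, the smallest one-sided p of an exact permutation test is 0.2, so calls rest on the fitted spread. Fewer producing cells and less RNA per cell cannot be told apart in such bulk samples.

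**Figure D1:**
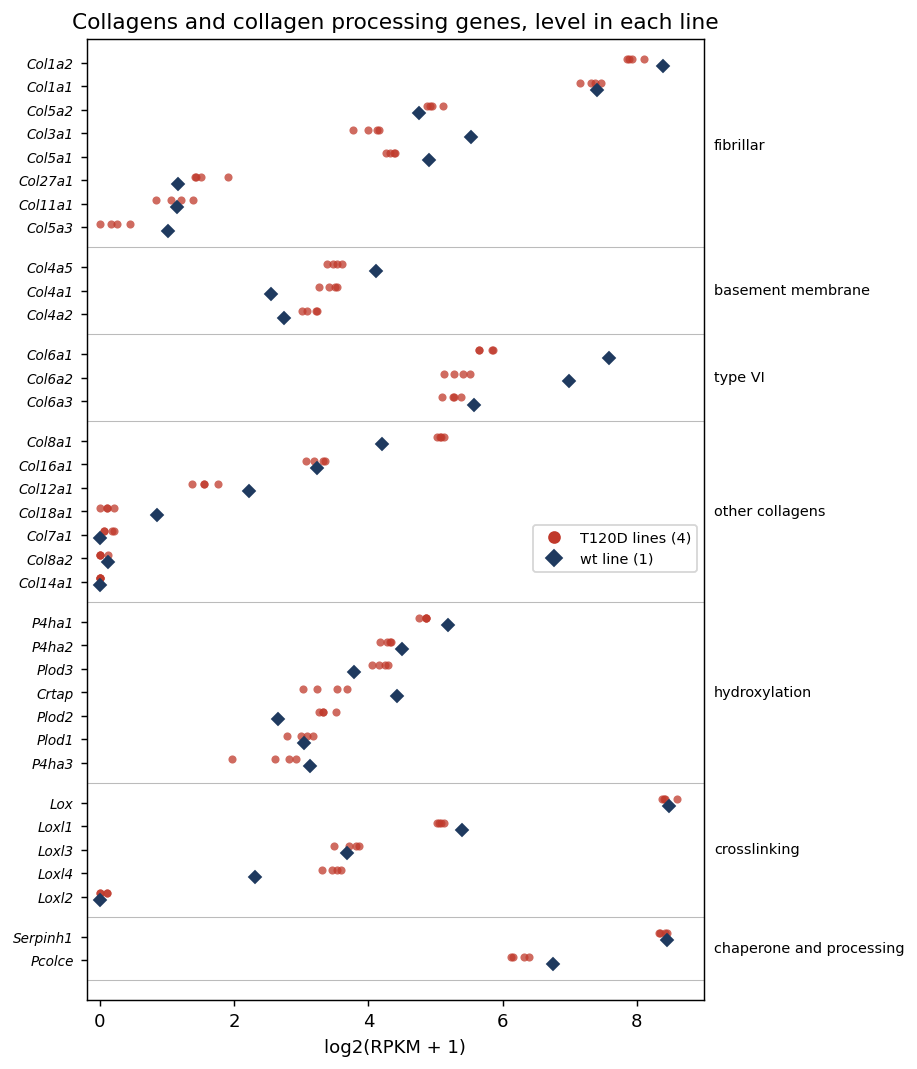
Level of each of the 35 genes with values, as log2(RPKM + 1) on the horizontal axis, grouped by class. Red circles are the 4 T120D lines and blue diamonds the 1 wt line. The wt diamond lies far to the right of the T120D circles for Col6a1, Col6a2 and Col3a1, and to their left for Col4a1, Col8a1, Plod2 and Loxl4.

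Summed over the 21 measured chains, the levels were 661, 731, 685 and 622 RPKM in T120D lines 3, 6, 15 and 18 and 1028 RPKM in wt. The T120D mean of 675 ± 45.4 RPKM (SD, n = 4) was 1.52-fold below wt. All 4 T120D lines lay below wt, and the sum, chosen with values known, was not tested. Type VI chains took 18.6% to 20.7% of it in T120D lines and 35.4% in wt. The type I chains Col1a1 and Col1a2 took 58.7% to 61.6% in T120D lines and 48.9% in wt. The modifying, crosslinking and folding genes summed to 906 ± 22.5 RPKM in T120D (SD, n = 4) and 977 in wt, a 1.08-fold lower level in T120D. Lox and Serpinh1 made up most of this sum, with T120D means of 348 and 334 RPKM and wt values of 355 and 348 RPKM. It therefore says little of the less abundant genes.

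**Figure D2:**
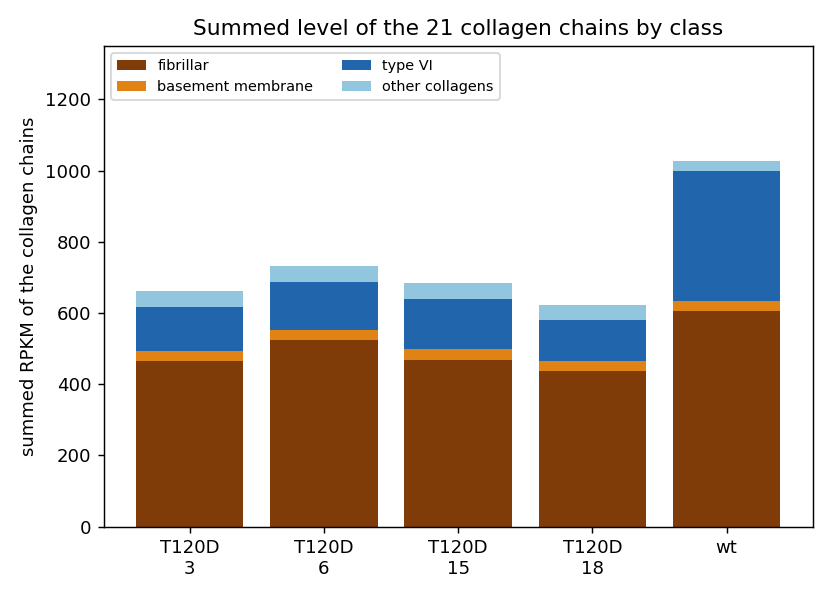
Summed RPKM of the 21 measured collagen chains in each line, stacked by class, with the 4 T120D lines left of the wt line. Each bar is 1 line, with no error bar. The type VI block is 116 to 142 RPKM in the T120D lines and 364 in wt.

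Type VI collagen is assembled from the products of Col6a1, Col6a2 and, in its classical form, Col6a3. Col6a1 was at 49.0, 57.2, 56.6 and 49.3 RPKM in T120D lines 3, 6, 15 and 18 and at 192 RPKM in wt. Every T120D line was far below wt, with 508 to 634 estimated reads in T120D lines and 2143 in wt. The T120D mean was 53.0 ± 4.48 RPKM (SD, n = 4), 3.62-fold below wt, or -1.84 on the log2 scale (SE 0.12, limma adjusted p = 7.29e-05). Col6a2 was at 37.9, 41.7, 44.7 and 34.0 RPKM in the T120D lines and 126 RPKM in wt, again with no overlap. Its mean was 39.6 ± 4.66 RPKM (SD, n = 4), or -1.65 on the log2 scale (SE 0.15, limma adjusted p = 0.000266). Col6a3 was at 37.7, 37.3, 40.4 and 33.1 RPKM in the T120D lines and 46.5 RPKM in wt. All T120D lines were below wt here too, by far less, and the gene was not called (log2 difference -0.32, 95% confidence interval -0.61 to -0.03, limma adjusted p = 0.138).

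In the balance of the type VI chains the wt line stood apart. The Col6a1 to Col6a3 ratio of RPKM was 1.30, 1.53, 1.40 and 1.49 in T120D lines 3, 6, 15 and 18 and 4.12 in wt. For Col6a2 to Col6a3 it was 1.005, 1.117, 1.106 and 1.027 in the T120D lines and 2.70 in wt. In the T120D lines the RPKM values of Col6a2 and Col6a3 were nearly equal, which they were not in wt. The transcript lengths behind these values are not known here, so this does not show equal transcript numbers. The Col6a1 to Col6a2 ratio was 1.27 to 1.45 in the T120D lines and 1.53 in wt. These ratios were picked with values known and are given without a test.

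Col6a1 and Col6a2 are direct neighbours on chromosome 10 on the same strand, with no coding gene between them, and Col6a3 lies on chromosome 1. The promoter windows of this neighbouring pair, 250 bases before to 50 after the annotated start, are shown because both genes fell (RefSeq, GRCm38.p6, a later build than the mm9 of the deposited values). Capitals mark any match, on either strand, to GGGCGG (the GC box), CCAAT (the CCAAT box), TATAAA (the TATA box), TGANTCA (the AP-1 motif) or GGAATG (the TEAD motif). Col6a1 is at chr10:76725995-76726294, minus strand, and Col6a2, the more upstream of its 2 listed starts, at chr10:76623581-76623880, minus strand.
Col6a1: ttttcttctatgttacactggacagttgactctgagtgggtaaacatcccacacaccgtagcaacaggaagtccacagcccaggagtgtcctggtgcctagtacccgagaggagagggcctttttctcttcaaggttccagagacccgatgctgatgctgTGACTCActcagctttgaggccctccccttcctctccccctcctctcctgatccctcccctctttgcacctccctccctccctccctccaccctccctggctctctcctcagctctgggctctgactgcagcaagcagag
Col6a2: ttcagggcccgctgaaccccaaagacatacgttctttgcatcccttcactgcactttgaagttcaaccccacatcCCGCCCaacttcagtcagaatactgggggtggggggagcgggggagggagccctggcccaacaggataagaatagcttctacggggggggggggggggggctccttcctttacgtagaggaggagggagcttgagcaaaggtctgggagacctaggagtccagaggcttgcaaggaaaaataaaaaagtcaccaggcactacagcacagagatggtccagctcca
The Col6a1 window held 1 match to TGANTCA, a motif found in 7.81% of all 32851 listed windows, and the Col6a2 window 1 match to GGGCGG, found in 35.7%. They shared none of the 5 motifs. A match is a description of the letters and not a site.

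Among the 7 tested fibrillar chains, 3 were lower and 0 higher (5.45% and 7.65% of all tested genes), with a median log2 difference of -0.08. Col3a1 encodes the chain of type III collagen, which is prominent in soft tissue and early wound matrix. It was at 16.5, 16.9, 14.9 and 12.7 RPKM in T120D lines 3, 6, 15 and 18 and at 45.2 RPKM in wt. The groups did not overlap, and estimated reads were 186 to 254 in T120D lines and 686 in wt. The T120D mean of 15.2 ± 1.90 RPKM (SD, n = 4) was 2.97-fold below wt (log2 difference -1.52, SE 0.17, limma adjusted p = 0.000786). Its promoter window (chr1:45311288-45311587, plus strand, same source and motifs) is shown as that of the tested fibrillar chain with the largest fall.
Col3a1: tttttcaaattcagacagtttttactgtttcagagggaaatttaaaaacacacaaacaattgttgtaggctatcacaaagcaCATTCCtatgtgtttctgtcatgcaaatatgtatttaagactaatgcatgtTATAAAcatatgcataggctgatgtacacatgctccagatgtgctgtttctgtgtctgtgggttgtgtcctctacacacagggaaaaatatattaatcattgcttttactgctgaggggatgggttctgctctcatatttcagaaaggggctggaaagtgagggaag
It held 1 TATAAA and 1 GGAATG match, motifs of 13.6% and 14.7% of all windows, and no GC box. Its GC content was 37.7%, the lowest of the 28 windows found for these genes.

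Of the type I chains, the most abundant in the T120D lines, Col1a2 was called lower and Col1a1 was not called. Col1a1 was at 165, 176, 159 and 141 RPKM in the T120D lines and 169 RPKM in wt, which lay within their range. Its log2 difference was small (-0.08, 95% confidence interval -0.35 to 0.19, limma adjusted p = 0.711). Col1a2, its partner in the type I heterotrimer, was at 231, 274, 243 and 234 RPKM in the T120D lines and 334 RPKM in wt. All T120D lines were below wt, with a mean of 246 ± 19.7 RPKM (SD, n = 4), a log2 difference of -0.45 and a limma adjusted p of 0.0253. This call ended without T120D line 3 (limma adjusted p = 0.0568) and without line 18 (0.0542). The Col1a1 to Col1a2 ratio was 0.604 to 0.714 in T120D lines and 0.505 in wt. Col3a1 stood at 0.0898 to 0.10005 of Col1a1 in T120D lines and at 0.268 in wt.

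Type V collagen sits inside type I fibrils and limits their width. Col5a1 was at 18.9, 19.95, 19.8 and 18.2 RPKM in the T120D lines and 29.03 RPKM in wt. The T120D values were tight and all below wt, with a mean of 19.2 ± 0.824 RPKM (SD, n = 4), a log2 difference of -0.57 (SE 0.13) and a limma adjusted p of 0.0195 (0.0594 without a trend). Its partner Col5a2 was above wt in every T120D line and was not called, at 29.9, 33.4, 29.3 and 28.3 RPKM in T120D lines and 26.0 in wt (log2 difference 0.21, 95% confidence interval -0.08 to 0.50, limma adjusted p = 0.331). The Col5a1 to Col5a2 ratio was 0.597 to 0.674 in T120D lines and 1.12 in wt. Col5a2 is the direct coding neighbour of Col3a1 on chromosome 1, on the opposite strand.

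The remaining fibrillar chains were expressed at low levels. Col11a1 was at 0.783 to 1.62 RPKM in T120D lines and 1.21 in wt. Col27a1 was at 1.67 to 2.75 RPKM in T120D lines and 1.25 in wt, with 34 to 53 estimated reads in T120D lines and 26 in wt. Neither was called, with limma adjusted p of 0.971 and 0.39. Col5a3 was under the filter at 0 to 0.370 RPKM in T120D lines and 1.02 in wt, or 0 to 6 estimated reads in T120D lines and 17 in wt.

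**Figure D3:**
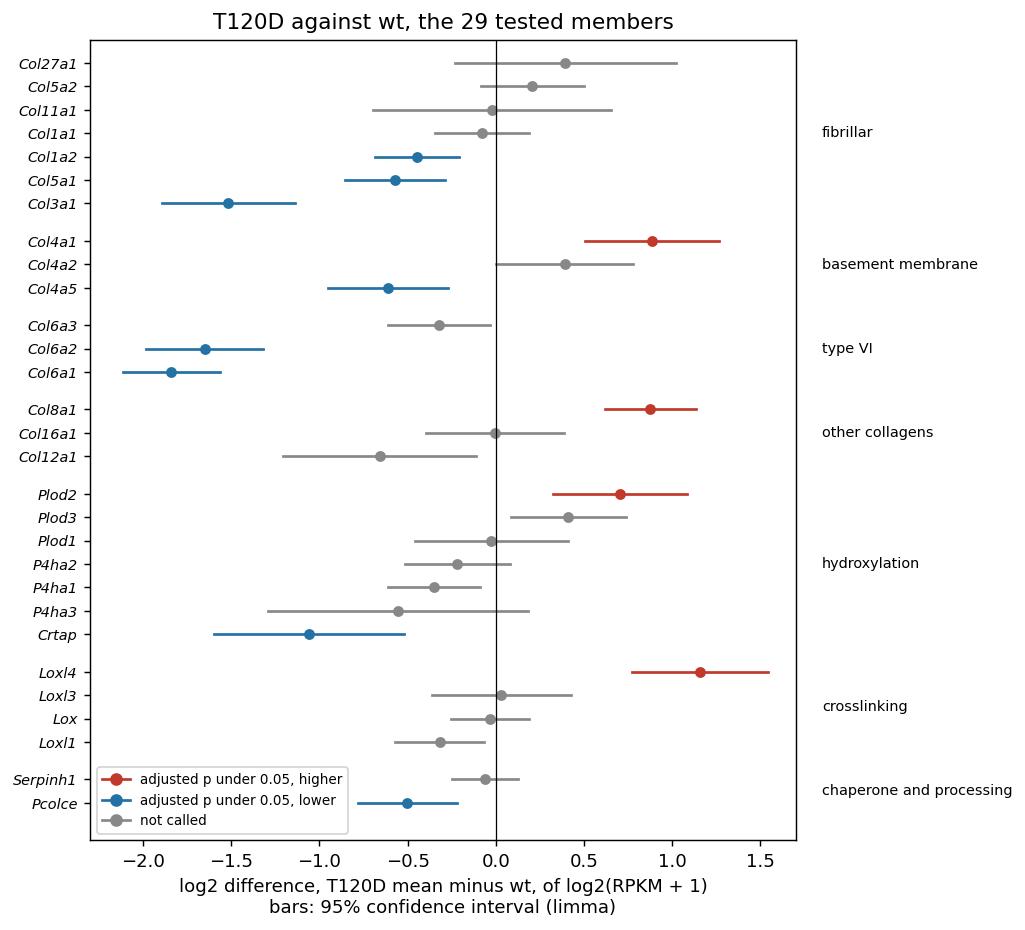
Difference of the T120D mean from wt on the log2(RPKM + 1) scale for the 29 tested genes, grouped by class, with 95% confidence intervals from limma. Red marks the 4 genes called higher, blue the 8 called lower and grey those not called. Differences range from -1.84 for Col6a1 to 1.16 for Loxl4.

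Among the basement membrane chains, Col4a1 was higher, Col4a5 lower and Col4a2 not called (7.65% of all tested genes were higher and 5.45% lower). Col4a1 and Col4a2 encode the chains of the most widespread type IV collagen. Col4a1 was at 10.3, 8.65, 9.65 and 10.6 RPKM in T120D lines 3, 6, 15 and 18 and at 4.82 RPKM in wt. No T120D line overlapped wt, with 155 to 184 estimated reads in T120D lines and 87 in wt. The mean of 9.79 ± 0.846 RPKM (SD, n = 4) was 2.03 times the wt level (log2 difference 0.89, SE 0.17, limma adjusted p = 0.0105). Col4a2 was at 7.08, 8.39, 8.36 and 7.44 RPKM in T120D lines and 5.71 RPKM in wt, with no overlap but no call (log2 difference 0.39, 95% confidence interval 0.002 to 0.78, limma adjusted p = 0.173). Their ratio, Col4a1 to Col4a2, was 1.03 to 1.45 in T120D lines and 0.845 in wt. This pair lies head to head on chromosome 8, and the gene records overlap at their starts on opposite strands, so reads there could be counted to either. The Col4a1 window (chr8:11312777-11313076, minus strand) is shown as that of the called gene of the pair. It overlaps only in part the Col4a2 window (chr8:11312555-11312854, plus strand), which held 3 GC box matches and 1 CCAAT match.
Col4a1: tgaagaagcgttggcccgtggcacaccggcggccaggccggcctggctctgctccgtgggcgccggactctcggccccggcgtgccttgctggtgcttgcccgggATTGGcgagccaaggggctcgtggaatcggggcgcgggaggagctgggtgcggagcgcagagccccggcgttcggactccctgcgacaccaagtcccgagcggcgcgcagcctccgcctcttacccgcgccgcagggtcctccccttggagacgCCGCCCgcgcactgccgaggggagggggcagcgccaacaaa
The Col4a1 window held 1 GC box and 1 CCAAT match, and CCAAT was found in 37.4% of all windows.

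Col4a5 encodes a chain of a second type IV network and sits head to head with Col4a6 on chromosome X. It was at 10.1, 10.6, 11.1 and 9.48 RPKM in the T120D lines and 16.3 RPKM in wt. All T120D lines were below wt, with a mean of 10.3 ± 0.700 RPKM (SD, n = 4), a log2 difference of -0.61 and a limma adjusted p of 0.03. The call ended without T120D line 3 (limma adjusted p = 0.0615) and without line 18 (0.055). Col4a6, which is not among the 37 genes, was at 3.93, 4.61, 4.01 and 3.37 RPKM in T120D lines and 10.8 RPKM in wt (log2 difference -1.25, SE 0.20, limma adjusted p = 0.00516). Both genes of this pair were thus lower in every T120D line. Both genes of the chromosome 8 pair, whose records overlap, were above wt in every T120D line, with Col4a2 not called. For comparison, every T120D line was below wt for 32.3% of all tested genes and above it for 31.1%.

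**Figure D4:**
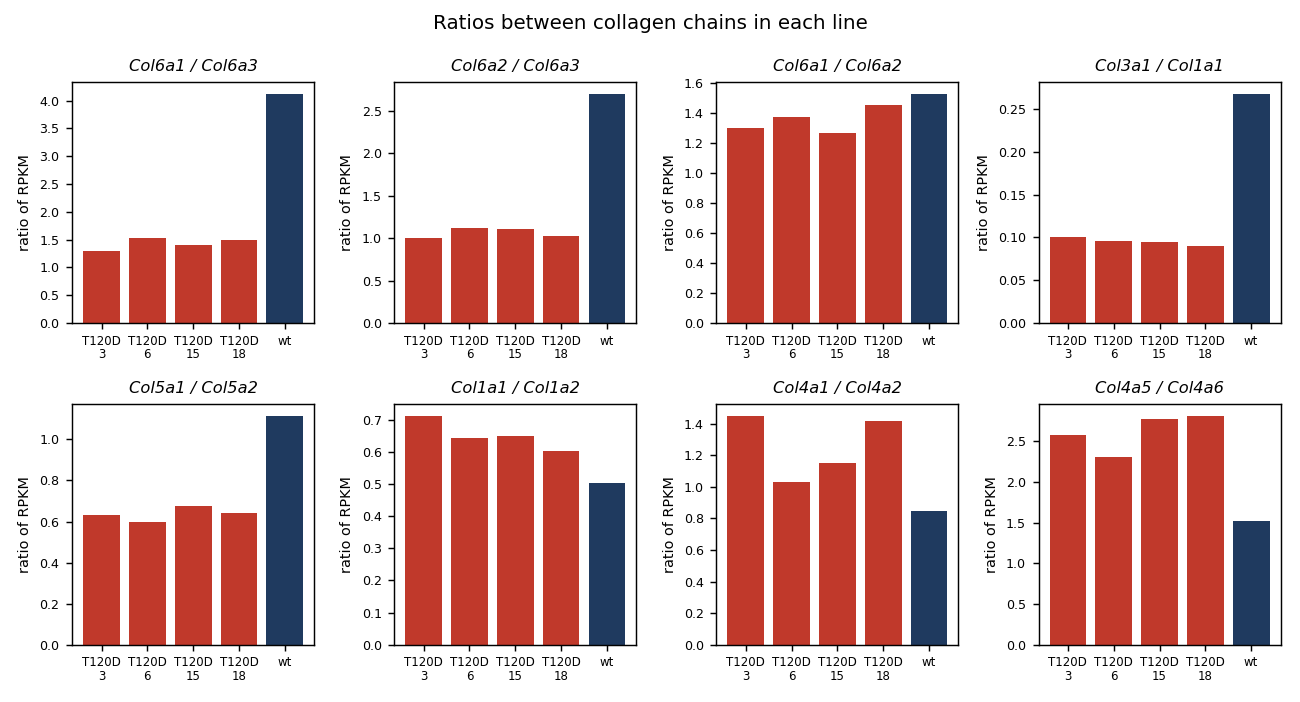
Ratio of RPKM between chains of related collagens in each line, 1 panel per ratio, with the 4 T120D lines in red left of the wt line in blue. Each bar is 1 line and every axis starts at 0. Col6a1 and Col6a2 over Col6a3, Col3a1 over Col1a1 and Col5a1 over Col5a2 are lower in all T120D lines than in wt, while Col4a5 over Col4a6 is 2.30 to 2.82 in T120D lines and 1.51 in wt.

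Of the other collagens, 3 were tested, and Col8a1 was higher (as were 7.65% of all tested genes). It encodes a short-chain collagen that forms networks under endothelium and in vessel walls. Col8a1 was at 32.6, 33.0, 33.7 and 31.6 RPKM in T120D lines 3, 6, 15 and 18 and at 17.4 RPKM in wt. The T120D values were close together and all above wt, with a mean of 32.7 ± 0.903 RPKM (SD, n = 4), 1.88 times wt (log2 difference 0.88, SE 0.11, limma adjusted p = 0.00171). By level it was the sixth chain in T120D and the ninth in wt. Its window (chr16:57754688-57754987, minus strand) is shown as that of the chain that rose with the smallest spread.
Col8a1: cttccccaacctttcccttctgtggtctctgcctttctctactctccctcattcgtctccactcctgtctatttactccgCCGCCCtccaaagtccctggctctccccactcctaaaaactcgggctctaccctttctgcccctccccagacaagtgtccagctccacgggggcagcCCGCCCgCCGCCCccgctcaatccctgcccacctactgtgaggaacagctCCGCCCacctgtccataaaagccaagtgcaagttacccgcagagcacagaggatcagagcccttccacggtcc
It held 4 GC box matches and none of the other motifs. Col16a1, a collagen with interrupted triple helices, was at 7.38 to 9.19 RPKM in T120D lines and 8.45 in wt (log2 difference -0.01, 95% confidence interval -0.40 to 0.38, limma adjusted p = 0.985). Col12a1, of the same subfamily on fibril surfaces, was at 1.93, 2.38, 1.93 and 1.60 RPKM in T120D lines and 3.65 in wt, below wt in every line but not called (log2 difference -0.66, limma adjusted p = 0.11).

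The others were under the filter. Col18a1, whose product carries endostatin, was at 0.157, 0, 0.0744 and 0.0752 RPKM in T120D lines and 0.799 in wt. Col7a1, the anchoring fibril gene, was at 0.0408 to 0.161 RPKM in T120D lines and listed at 0 in wt. Col8a2 did not exceed 0.0853 RPKM in any line, and Col14a1 was listed at 0 in all 5.

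Of the 7 hydroxylation genes, 1 was higher and 1 lower in T120D, against 7.65% and 5.45% of all tested genes. Plod2 encodes the lysyl hydroxylase that acts on collagen telopeptides and so sets the type of crosslink. It was at 10.4, 9.04, 8.59 and 9.05 RPKM in T120D lines 3, 6, 15 and 18 and at 5.29 RPKM in wt, so that all T120D lines were above wt. The mean of 9.28 ± 0.799 RPKM (SD, n = 4) was 1.75 times wt (log2 difference 0.70, SE 0.17, limma adjusted p = 0.0261), and the call ended without T120D line 3 (limma adjusted p = 0.0533). Plod3, a lysyl hydroxylase that also adds sugars, was at 15.7 to 18.6 RPKM in T120D lines and 12.7 in wt, and was not called (log2 difference 0.41, limma adjusted p = 0.096). Plod1, which acts within the helix, was at 5.90 to 8.03 RPKM in T120D lines and 7.22 in wt (log2 difference -0.03, limma adjusted p = 0.944). The Plod2 to Plod1 ratio was 1.14 to 1.53 in T120D lines and 0.734 in wt.

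Crtap encodes the partner protein of prolyl 3-hydroxylase 1. It was at 10.6, 7.11, 11.8 and 8.42 RPKM in the T120D lines and 20.5 RPKM in wt. The T120D lines scattered widely but all lay below wt, with 32 to 53 estimated reads in T120D lines and 94 in wt. The mean of 9.49 ± 2.13 RPKM (SD, n = 4) was 2.16-fold below wt (log2 difference -1.06, SE 0.24, limma adjusted p = 0.0215), a call lost by limma when low genes were kept in the test (adjusted p = 0.114) and without a trend (0.0564). The gene of the hydroxylase itself, listed as Lepre1, was at 6.92 to 9.81 RPKM in T120D lines and 9.08 in wt and was not called (limma adjusted p = 0.656). P4ha1, P4ha2 and P4ha3 encode the catalytic subunits of prolyl 4-hydroxylase, which stabilises the helix. P4ha1 was at 28.1, 27.9, 28.0 and 26.1 RPKM in T120D lines and 35.3 in wt, P4ha2 at 17.0 to 19.3 in T120D lines and 21.5 in wt, and P4ha3 at 2.89 to 6.57 in T120D lines and 7.77 in wt. Each was below wt in every T120D line, as were 32.3% of all tested genes. None was called by limma (adjusted p of 0.0821, 0.32 and 0.304, and unadjusted p of 0.0144, 0.134 and 0.122).

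Of the 4 tested genes of the crosslinking family, Loxl4 was higher and the others were not called, against 7.65% of all tested genes called higher. Loxl4 encodes a lysyl oxidase-like enzyme with scavenger receptor domains. It was at 10.0, 8.90, 10.6 and 11.1 RPKM in T120D lines 3, 6, 15 and 18 and at 3.98 RPKM in wt. All T120D lines were at more than 2 times wt, with a mean of 10.2 ± 0.942 RPKM (SD, n = 4), 2.55 times wt (log2 difference 1.16, SE 0.17, limma adjusted p = 0.00341), the largest rise among the 29 genes. Its window (chr19:42612757-42613056, minus strand) is shown for that reason.
Loxl4: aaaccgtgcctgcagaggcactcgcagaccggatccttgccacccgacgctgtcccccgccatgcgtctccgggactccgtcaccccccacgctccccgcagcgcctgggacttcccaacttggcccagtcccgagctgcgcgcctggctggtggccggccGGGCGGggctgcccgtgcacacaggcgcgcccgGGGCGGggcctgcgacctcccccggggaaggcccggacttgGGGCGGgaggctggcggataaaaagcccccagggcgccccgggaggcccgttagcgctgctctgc
It held 3 GC box matches and none of the other motifs. Lox, the main lysyl oxidase, was the most abundant of the 35 genes on average, at 330, 337, 340 and 385 RPKM in T120D lines and 355 RPKM in wt. The wt line lay within that range (log2 difference -0.03, 95% confidence interval -0.25 to 0.19, limma adjusted p = 0.863). Loxl1, which acts mainly on elastin, was at 31.4 to 33.9 RPKM in T120D lines and 40.9 in wt, below wt in every line and not called (log2 difference -0.32, limma adjusted p = 0.096). Loxl3 was at 10.2 to 13.5 RPKM in T120D lines and 11.9 in wt, and Loxl2 did not exceed 0.0763 RPKM. The Lox to Loxl4 ratio was 32.2 to 37.8 in T120D lines and 89.2 in wt.

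Serpinh1 encodes HSP47, the collagen chaperone. It was at 323, 349, 341 and 321 RPKM in the T120D lines and 348 RPKM in wt, which lay within their range (log2 difference -0.06, 95% confidence interval -0.25 to 0.13, limma adjusted p = 0.683). Pcolce encodes the enhancer of procollagen C-proteinase. It was at 70.4, 68.9, 79.1 and 83.1 RPKM in T120D lines and 107 RPKM in wt. Each T120D line lay below wt, with a mean of 75.4 ± 6.85 RPKM (SD, n = 4), a log2 difference of -0.50 and a limma adjusted p of 0.0295, a call that ended without T120D line 3 (0.0639).

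Other genes of the same route were looked up from lists of remaining collagen chains, procollagen proteinases, folding genes, export genes and receptors. Of 12 remaining chains with a value, Col4a6 was the 1 tested and was lower. Of 4 procollagen proteinase genes tested, 0 were called by limma, and 1 had an unadjusted p under 0.05, Adamts2, the main procollagen N-proteinase gene, at 2.44 to 3.12 RPKM in T120D lines and 5.31 in wt (log2 difference -0.72, limma adjusted p = 0.0583, named after its value was seen). Bmp1, the C-proteinase gene, was at 9.24 to 10.995 RPKM in T120D lines and 11.6 in wt (log2 difference -0.18, limma adjusted p = 0.482). Among 10 tested modifying and folding genes, 0 were called by limma, and 4 had an unadjusted p under 0.05. The share of all tested genes at that unadjusted level was not computed, so these counts have no background. At an adjusted p under 0.05 limma called 13.1% of all tested genes. P4hb, the shared subunit of prolyl 4-hydroxylase, was at 220 to 228 RPKM in T120D lines and 187 in wt (log2 difference 0.26, limma adjusted p = 0.0633).

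Of 14 tested genes for procollagen export from the endoplasmic reticulum, 3 were higher and 0 lower, against 7.65% and 5.45% of all tested genes. Mbtps2, a protease that activates membrane-bound transcription factors, was at 10.5 to 12.8 RPKM in T120D lines and 5.20 in wt (log2 difference 1.02, limma adjusted p = 0.00497). Trappc2, which encodes sedlin, was at 1.49 to 2.95 RPKM in T120D lines and listed at 0 in wt (limma adjusted p = 0.00769). It passed the filter only through the T120D lines, where it was high, so its call lends no support to a rise. Sar1b, a GTPase of COPII vesicles, was at 14.4 to 16.7 RPKM in T120D lines and 10.8 in wt (log2 difference 0.51, limma adjusted p = 0.048), a call that ended without T120D line 3, 15 or 18. The Sar1b call also ended without the filter on low values, without a trend and with quantile normalization. The Sar1b paralog Sar1a, the most abundant of the list, was at 41.4 to 44.6 RPKM in T120D lines and 38.8 in wt and was not called (log2 difference 0.14, limma adjusted p = 0.419).

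Among 4 tested collagen receptor genes, 1 was higher and 1 lower, against 7.65% and 5.45% of all tested genes. Ddr2, the receptor kinase for fibrillar collagen, was at 40.3, 47.2, 43.9 and 46.8 RPKM in T120D lines and 76.4 RPKM in wt (log2 difference -0.77, SE 0.12, limma adjusted p = 0.0044). Itgb1, the integrin subunit shared by the collagen-binding integrins, was at 103, 91.2, 97.7 and 97.7 RPKM in T120D lines and 68.8 RPKM in wt (log2 difference 0.49, SE 0.10, limma adjusted p = 0.014), a call that ended by limma without a trend (adjusted p = 0.0891). The integrin partners Itga1, Itga2, Itga10 and Itga11 were under the filter. Of these, Itga11 was at 0 to 0.0761 RPKM in T120D lines (0 to 1 estimated reads) and 1.11 in wt (15 estimated reads), and wt lay within the range of the T120D lines for the others.

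The T120D lines resembled each other in these genes. The median SD between them on the log2 scale was 0.12 for the 29 genes and 0.17 for all tested genes. This is a description, and the part of expression level in it was not tested. P4ha3 had the widest scatter, with 6.03, 6.57, 5.09 and 2.89 RPKM, and Col8a1 the narrowest (SD 0.43 and 0.04 on the log2 scale). Promoter windows were found for 28 of the 37 genes. Of these, 23 (82.1%) held a GC box, against 35.7% of all windows, and their median GC content was 62.3%, against 52.7%. The listed windows include starts of non-coding genes. A GC box stood in 3 of 3 windows of genes called higher, 6 of 8 called lower and 9 of 11 not called.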

How the data were processed

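RNA-seq of 5 mouse fibroblast lines was used, 4 T120D and 1 wt, from stranded TruSeq mRNA libraries of total RNA extracted with ISOGEN II, per the labels. The deposited tables hold RPKM values, 1 file per line and no read counts, per the file headers. Per the submitters' processing notes the authors used Partek and build mm9. The sources used here name no aligner, annotation or strand setting. The values of the 6 genes that overlap another listed gene are therefore uncertain (Col4a1, Col4a2, Plod2, Plod3, Crtap and Loxl3).

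Depth was estimated from values of single-transcript genes with GENCODE M21 lengths. Under 20 reads, 47.3% to 48.9% came within 0.05 reads of a whole number, so whole reads were not recovered and no count test was run. Estimated reads are given for genes with 1 transcript.

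Values were analysed as log2(RPKM + 1) for the 10052 genes averaging 1 RPKM or more, which understates changes of low genes. The average holds 4 T120D lines and 1 wt line, so a gene seen only in T120D lines passes more easily than a gene seen only in wt. limma 3.58.1 (R 4.3.3, two-sided, intensity trend) compared T120D with wt, with Benjamini-Hochberg adjustment over all tested genes and calls under 0.05. With 1 wt line the spread is that between T120D lines (residual df 3, prior df 5.99). The method was tested on simulated data that had the same spread in wt and T120D. Such data cannot show whether the 1 wt line varies as the T120D lines do. Fold values are ratios of RPKM.

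The genes, lists and ratios were chosen with earlier results of these data known. Each called gene and the most abundant of each class are given in every line, and from other lists up to 3 called genes per direction and the most abundant. Alternatives are in the closing section.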

Additional observations from a re-analysis of the deposited data

Results flagged for a closer look

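Among the 34 genes with values above 0, the 4 T120D lines were screened for a line far from the other 3 on the log2(RPKM + 1) scale, by the gap to the nearest line as a share of the range (Dixon's test at the 95% critical value). Chance flags about 1 in 20 groups without tied values, and 2 genes passed. P4ha1 was lower in T120D line 18, at 26.1 RPKM, with the other T120D lines at 27.9 to 28.1 RPKM, a gap of 0.893 of the range. The range is narrow, and wt was at 35.3 RPKM. Col8a2 was at 0.0853 RPKM in T120D line 6, about 1 estimated read, and listed at 0 in lines 3, 15 and 18, a gap of 1 times the range, and wt was at 0.0847 RPKM. With lines 3, 15 and 18 tied at 0, any value above 0 in line 6 gives this gap, so the flag carries no information.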

How the results depend on the processing

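Under 11 alternative settings, Col3a1, Col6a1 and Col6a2 (lower) and Col4a1, Col8a1 and Loxl4 (higher), 6 of the 12 calls, were called in each, and no call changed direction. The number called lower was 8, and it was 3 by limma without a trend, where Col1a2, Col4a5, Col5a1, Crtap and Pcolce were not called (adjusted p of 0.136, 0.0583, 0.0594, 0.0564 and 0.115), and 5 to 8 when a T120D line was left out, with the lowest count without line 3. The number called higher was 3 to 4 when a line was left out. Without the filter on low values 3 were higher and 6 lower, with Col1a2, Crtap, Pcolce and Plod2 not called and Col18a1 called. Quantile normalization added Loxl1 and P4ha1 as lower (limma adjusted p of 0.0451 and 0.0396). With lines 3, 15 and 18 averaged as 1 sample, chosen after seeing the data, 4 were higher and 6 lower, without Col1a2 and Col4a5. A pseudocount of 0.1 RPKM, a mean of at least 5 RPKM and median scaling left the counts at 4 and 8. The cause of these changes was not tested. The median log2 difference stayed between -0.15 and -0.06. No paired analysis was possible because the wt group has 1 line and shares no number with the T120D lines. At about 5 reads per RPKM for 2000 bases, genes averaging under 1 RPKM rest on few reads and were tested only without the filter.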

Other observations

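Coding genes beside the neighbouring collagen pairs, 5 on each side, were looked up as values. At an adjusted p under 0.05 limma called 7.65% of all tested genes higher and 5.45% lower. The share of all tested genes at an unadjusted p under 0.05 was not computed, so counts at that level have no background. Next to Col6a1 and Col6a2, 6 neighbours were tested and 0 were called by limma, with 2 at an unadjusted p under 0.05 and a median log2 difference of 0.10. The most abundant of the 6, Pofut2, was at 16.6 RPKM (T120D mean) and 17.5 RPKM (wt), with a log2 difference of -0.07. The largest differences were -0.56 for Adarb1 and 0.54 for Slc19a1 (limma adjusted p of 0.173 and 0.0939). Next to Col3a1 and Col5a2, 6 were tested and 0 called by limma, with 0 at an unadjusted p under 0.05 and a median of -0.12. Next to Col4a1 and Col4a2, 7 were tested, with a median of 0.55, 4 had an unadjusted p under 0.05, and 2 were higher. These were Ing1, a chromatin regulator gene, at a mean of 15.1 RPKM in T120D and 9.52 RPKM in wt (log2 difference 0.61, adjusted p = 0.0265 by limma), and Ankrd10 at 18.9 RPKM in T120D and 12.1 in wt (0.60, limma adjusted p = 0.0389). Next to Col4a5 and Col4a6, 5 were tested, with a median of 0.06, 2 had an unadjusted p under 0.05, and both were higher, against the direction of the pair. These were Acsl4, a fatty acid CoA ligase gene, at 16.4 RPKM in T120D and 9.48 RPKM in wt (log2 difference 0.73, adjusted p = 0.0199 by limma), and Nxt2, an mRNA export gene, at 8.21 RPKM in T120D and 4.46 in wt (0.75, limma adjusted p = 0.0362). These named genes were chosen after their values were seen.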
